A study of Mus musculus with 10 samples.

Results

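Named long noncoding RNAs (lncRNAs), 10 in all, were looked up by gene symbol among the deposited genes of brain endothelial cells (BECs), and 8 were measured among 14106 genes. The 8 were Malat1, Neat1, Miat, Gas5, Snhg1, Snhg11, Snhg12 and Norad. Meg3 and Rian, which are transcribed from the imprinted Dlk1-Dio3 domain, were not analysed here. The list was a choice of well known names and followed no rule on a measured value. Earlier results of these data were known when it was chosen. BECs were isolated as CD31+CD45- cells from dissociated cortex of female mice 1 year old. There were 5 libraries of APP/PS1 mice and, as control, 5 of age-matched mice labelled WT. APP/PS1 mice carry the APPswe and PSEN1dE9 transgenes and deposit Aβ in the brain, and both groups were of the C3H/BL6 background. The promoter that drives the transgenes is not given in the sources used here. The study compared them to find what differs in the brain endothelium of this model of Alzheimer's disease. The sources used here do not say whether a library came from 1 mouse or a pool, so the unit behind each SD and p-value is the library. In bulk RNA, fewer cells of a type and less RNA per cell cannot be told apart.

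The values are log2 CPM, the log2 of counts scaled to library size, after a batch correction by the authors. They convert back to whole adjusted counts, which summed to 22993426 to 126686149 in the control libraries and 22371766 to 114525432 in the APP/PS1 libraries. The replicate 1 library was the smallest of each group. The correction left the mean of the 2 libraries of a replicate number nearly the same in every pair, within a range of 0.2 log2 units for 94.6% of genes, so a library lies about as far above that mean as its partner lies below it. For most genes the SDs of the 2 groups are thus not independent and hold little of the spread between pair means. A gene that was lower in all 5 pairs therefore nearly always had groups that did not overlap. All 14 markers of endothelial cells were measured, with summed levels of 29700 to 31800 CPM in control and 30100 to 32200 CPM in APP/PS1 libraries.

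An lncRNA is a transcript without a recognised long coding frame that can act as RNA. Malat1 lies in nuclear speckles, the stores of splicing factors, and Neat1 is the scaffold around which paraspeckles are built. Norad binds the Pumilio proteins, which repress mRNAs, and Miat is a nuclear RNA known from heart and the nervous system that carries repeats resembling the branch point of introns. Gas5, Snhg1, Snhg11 and Snhg12 are small nucleolar RNA (snoRNA) host genes. Their introns release snoRNAs that guide the modification of other RNAs, and the spliced remainder of several host genes is degraded by nonsense-mediated decay.

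The sequences that separate these RNAs are given first, from the genome build GRCm38, the assembly also called mm10. Norad (2900097C17Rik in the annotation, chr2:156388065-156392979, minus strand, 1 exon) held 11 copies of the Pumilio element TGTANATA on its transcribed strand, where N is any base. That is 2.24 per kb. Of 7387 other transcripts at least 4915 bases long, 1 (0.0135%) had as many in its first 4915 bases. The first 3 and the last 2 copies are shown with the element in capitals, each at the position in the transcript where the element begins. In these 5 copies the variable base is T, A or C.
Norad, position 651, chr2:156392314-156392337, minus strand: aagtcctgTGTATATAatatgaaa
Norad, position 1147, chr2:156391818-156391841, minus strand: aaacatgcTGTAAATAcctttttg
Norad, position 1336, chr2:156391629-156391652, minus strand: cttttcttTGTACATAgtgtatgt
Norad, position 2754, chr2:156390211-156390234, minus strand: tactactaTGTATATAggggacaa
Norad, position 3526, chr2:156389439-156389462, minus strand: tgagaaagTGTACATAacggattg

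Miat (chr5:112213228-112229395, minus strand, up to 7 exons) carried the repeat TACTAAC 6 times on its transcribed strand. None of 974 other transcripts of at least 9163 bases had as many in that length (0.0%). The 2 clusters below lie in exon 7 of 7 and are shown, with the repeat in capitals, because Miat is the RNA with the smallest p between the groups.
Miat, chr5:112217309-112217360, minus strand: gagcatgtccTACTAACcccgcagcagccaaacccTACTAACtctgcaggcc
Miat, chr5:112216752-112216812, minus strand: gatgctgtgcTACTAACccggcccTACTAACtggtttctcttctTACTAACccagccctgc

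Malat1 (chr19:5795690-5802672, minus strand) and Neat1 (chr19:5824708-5845478, minus strand) are neighbours, 22036 bases apart. Both are known to end in a tRNA-like structure that is cut to make the 3′ end, next to a U-rich stretch and a genomic A-rich tract. The longest run that the last 120 bases of Neat1 share with Malat1 is 16 bases, in capitals below, and it occurred in the transcripts of no other gene of 55450 searched. The A-rich tract aaaaagcaaaa follows it in both.
Malat1, chr19:5795944-5796054, minus strand: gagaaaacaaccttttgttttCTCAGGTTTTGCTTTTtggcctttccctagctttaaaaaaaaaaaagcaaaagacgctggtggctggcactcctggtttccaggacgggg
Neat1, chr19:5824708-5824787, minus strand: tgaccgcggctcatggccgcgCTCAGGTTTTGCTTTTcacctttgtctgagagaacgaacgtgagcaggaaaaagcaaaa

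The annotation places 10 snoRNA genes inside Gas5 (chr1:161034422-161038539, plus strand), 8 inside Snhg1 (chr19:8723475-8726443, plus strand), 2 inside Snhg11 (chr2:158375638-158386145, plus strand) and 5 inside Snhg12 (chr4:132308623-132311024, plus strand). The first 2 snoRNAs below are of the box C/D kind, with matches to box C (TGATGA) and box D (CTGA) in capitals, and the last is of the H/ACA kind, with its ACA box in capitals.
Snord47, within Gas5, chr1:161038082-161038158, plus strand: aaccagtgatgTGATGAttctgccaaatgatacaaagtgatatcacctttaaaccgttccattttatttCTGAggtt
Snord99, within Snhg12, chr4:132310691-132310764, plus strand: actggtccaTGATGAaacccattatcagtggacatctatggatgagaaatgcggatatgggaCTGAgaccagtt
Snora61, within Snhg12, chr4:132310240-132310369, plus strand: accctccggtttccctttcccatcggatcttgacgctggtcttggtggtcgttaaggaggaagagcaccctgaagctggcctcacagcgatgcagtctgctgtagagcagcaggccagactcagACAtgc

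Host genes of snoRNAs are known for start sites in a pyrimidine tract. RefSeq promoters of build GRCm38.p6, from 250 bases before to 50 after each start, were matched for 6 of the 8 RNAs. A tract was taken as a C within 2 bases of the start followed by at least 4 further C or T, which 2942 of 32851 promoters (8.96%) held. Below are 60 bases around the start, with the tract, or without one the first transcribed base, in capitals. The second Gas5 start, Snhg12 and Miat held a tract. The first Gas5 start, Malat1, Snhg1 and Snhg11 did not by this definition.
Gas5, second start, chr1:161035136-161035195, plus strand: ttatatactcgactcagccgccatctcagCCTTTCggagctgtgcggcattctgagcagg
Snhg12, chr4:132308648-132308707, plus strand: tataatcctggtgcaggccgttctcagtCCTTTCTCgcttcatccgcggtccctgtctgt
Miat, chr5:112228919-112228978, minus strand: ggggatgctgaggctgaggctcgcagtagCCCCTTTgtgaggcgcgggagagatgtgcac
Snhg1, chr19:8723457-8723516, plus strand: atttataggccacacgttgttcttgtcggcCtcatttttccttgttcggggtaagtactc
Snhg11, chr2:158375683-158375742, plus strand: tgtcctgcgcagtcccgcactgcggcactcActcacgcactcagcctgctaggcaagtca

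The 8 RNAs covered nearly the whole range of lncRNA levels in BECs. Levels between genes were compared as CPM per kb of annotated exon, beside the 1464 lncRNA genes of the GENCODE M21 annotation that were measured. Malat1 stood first at 448.1 CPM per kb, with a range of 378.6 to 518.3 over the 10 libraries. Gas5 followed at 26.62 CPM per kb (rank 18) and Neat1 at 23.42 (rank 21). Exon length was taken over all transcripts of a gene, so the level of Neat1, whose short form covers only the start of its 20771 bases, is averaged over its long form.

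Snhg1 stood at 9.835 CPM per kb (rank 53), Snhg12 at 7.907 (rank 81) and Norad at 4.98 (rank 148). Snhg11, at 0.0840, and Miat, at 0.0520 CPM per kb, lay near the bottom, where Miat ranked 1456 of 1464. The following 3 pairs of neighbours in this order were not separated by their spread. Gas5 lay above Neat1 in 5 of 5 control libraries and 3 of 5 APP/PS1 libraries, and Snhg11 lay above Miat in 5 of 5 and 4 of 5. Snhg1 lay above Snhg12 in every library, but their ranges overlapped in APP/PS1 libraries.

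**Figure D1:**
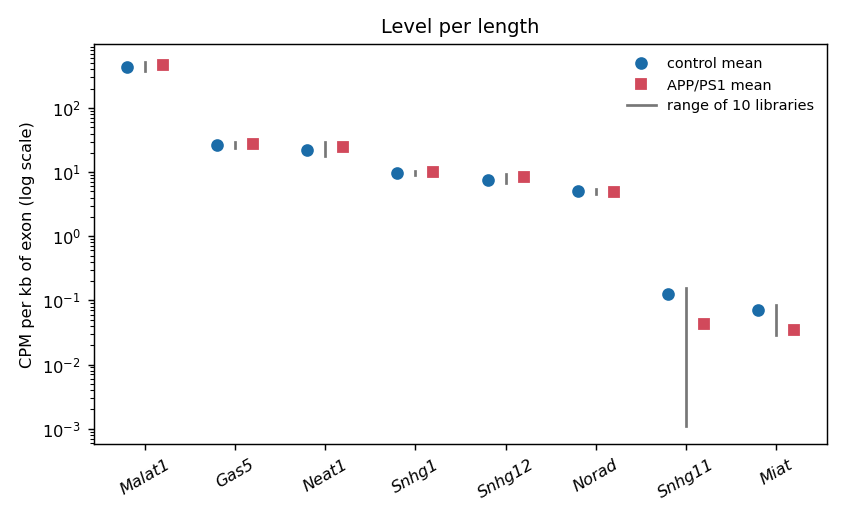
Level of each RNA in CPM per kb of annotated exon, on a log scale, in order of the mean of all libraries. Circles are control means and squares APP/PS1 means (5 libraries each), and lines span the 10 libraries. Malat1 lies at 448.1 CPM per kb, while Snhg11 and Miat lie below 1.

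Genotype differences were fitted with limma, with the replicate pair as a block and Benjamini-Hochberg adjustment over 14106 genes. Each p-value of this fit rests on the spread of the 5 pair differences. No named lncRNA passed an adjusted p of 0.05, and neither did any of the 14106 genes (0.0%). In the same fit 1133 genes had an unadjusted p under 0.05, and limma-voom on the adjusted counts also called 0 genes. Miat and Snhg11 were the 2 of the 8 RNAs with an unadjusted p under 0.05, a share to be read against 8.03% of all genes. Both were lower in APP/PS1, as were 5.91% of all genes at that p. The same 2 RNAs were lower in all 5 pairs, as were 5.0% of all genes, and had every APP/PS1 library below every control library, as had 4.96%. With 5 pairs, the two-sided exact sign-flip permutation test cannot give a p below 1 in 16, so no single RNA could pass 0.05 by it. The study, in contrast, reports differentially expressed genes at an adjusted p under 0.05 together with a minimum fold change, and its methods name no replicate block. Without the block, limma called 648 genes here (4.59%), with no cut on fold change, so the sets are not alike. The reason for the difference from the study was not tested.

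**Figure D2:**
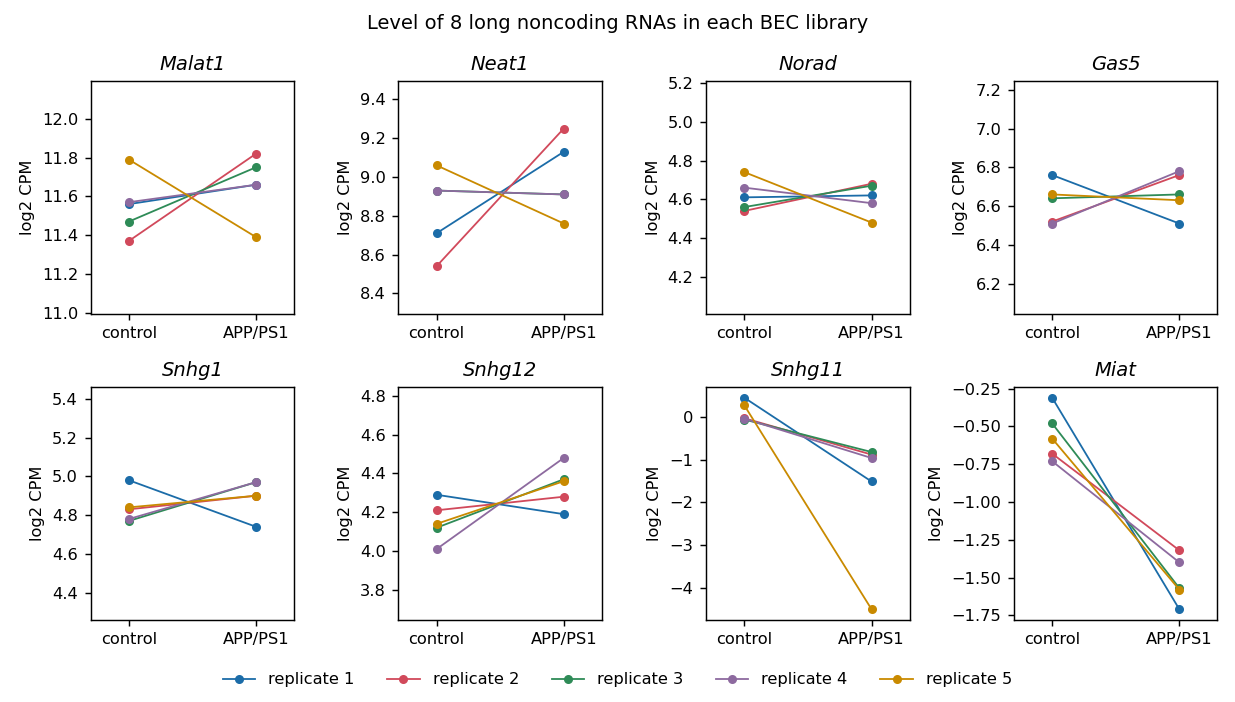
Log2 CPM of each RNA in the control and the APP/PS1 library of each replicate number, joined by lines. Each panel has its own vertical axis, which does not start at 0. In the panels of Snhg11 and Miat every line descends, and in the other 6 panels the lines cross.

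Miat was 0.513-fold of control in APP/PS1 BECs. Its log2 CPM was −0.31, −0.68, −0.48, −0.73 and −0.58 in control replicates 1 to 5. In the APP/PS1 libraries of the same numbers it was −1.71, −1.32, −1.57, −1.40 and −1.58. The highest APP/PS1 library thus lay below the lowest control library. The means were −0.55 ± 0.17 (SD, n = 5) and −1.52 ± 0.15 (SD, n = 5), with a limma log2 fold change of −0.96 (SE 0.123, 95% interval −1.27 to −0.66, limma adjusted p = 0.284). By p, Miat ranked 13 among all genes and 2 among the lncRNA genes, after Gm37238. The exact sign-flip permutation p over its pairs was the smallest possible.

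These Miat values rest on few counts. The adjusted counts, control against APP/PS1, were 18 and 6 in replicate 1, 73 and 38 in replicate 2, 48 and 21 in replicate 3, 63 and 38 in replicate 4, and 78 and 32 in replicate 5. Miat lay at the 2.76th percentile of mean level. Among 889 genes within 1 log2 unit of its mean, a window chosen after its values were seen, 20.2% had an unadjusted p under 0.05 and 9.79% were lower in all 5 pairs. In that window 14.5% of genes had a lower log2 fold change than Miat. Without the replicate block, which ignores that the pair means had been made nearly equal, the adjusted p of Miat was 0.00156 and 648 genes passed (4.59%). Over the 12 alternatives that kept Miat, its log2 fold change lay between −1.04 and −0.85 and its adjusted p between 0.00156 and 0.737.

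Snhg11, a host gene known for its expression in neurons, was the other RNA lower in every pair. Its log2 CPM was 0.45, −0.03, −0.06, −0.04 and 0.27 in control replicates 1 to 5, and −1.51, −0.88, −0.82, −0.96 and −4.50 in the APP/PS1 libraries. The groups did not overlap, but the APP/PS1 library of replicate 5 stood far below the rest. Its adjusted count was 1, against 144 in its control partner, while the other APP/PS1 libraries had 7 to 53 and their partners 31 to 117. Snhg11 was also an exception to the equal pair means, with −2.12 log2 CPM in replicate 5 and −0.53 to −0.44 in the other pairs. The limma log2 fold change was −1.85 (SE 0.634, 95% interval −3.42 to −0.29, limma adjusted p = 0.573). Without replicate 5 it was −1.12, with an unadjusted p under 0.05 and a limma adjusted p = 0.551. Without replicate 1 it was −1.83, and the unadjusted p no longer lay under 0.05.

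The spread of the Snhg11 pair differences was at the 98.4th percentile of all genes. Among 991 genes within 1 log2 unit of its mean, 19.4% had an unadjusted p under 0.05. The 8521 exon bases of Snhg11 are typed as protein coding in GENCODE M21 and as an lncRNA in RefSeq.

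**Figure D3:**
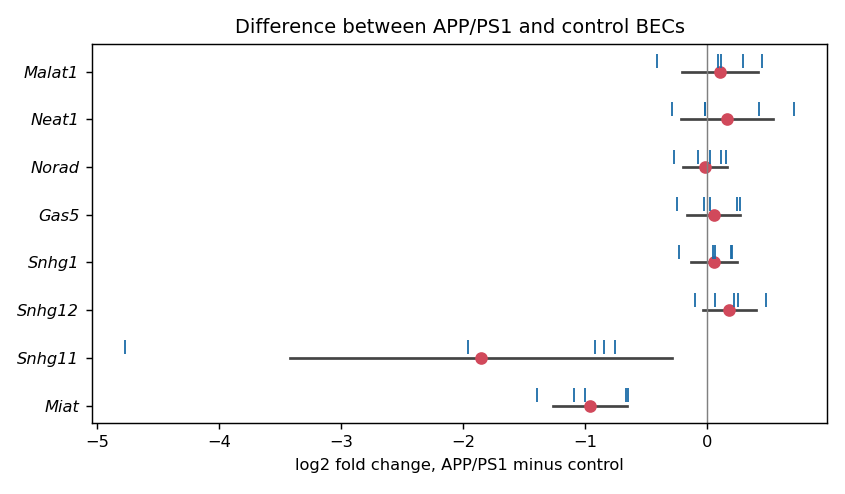
Log2 fold change of each RNA, APP/PS1 minus control. Points are limma estimates, horizontal lines their 95% intervals, and ticks the 5 pair differences. The intervals of Miat (−1.27 to −0.66) and Snhg11 (−3.42 to −0.29) lie below 0, and those of the other 6 RNAs include 0.

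Markers of other cell types were also lower in APP/PS1 libraries. Of 18 neuron markers listed, 10 were measured and 9 of the 10 were lower in APP/PS1, 5 with an unadjusted p under 0.05 and none past the adjusted threshold. Over all genes 8.03% had that p in either direction and 5.91% had it and were lower, the background over all levels for each marker count here. Among weakly expressed genes the share was higher, at 20.2% in either direction near the mean level of Miat. Some lists are weakly expressed, with a median level of 0.17 log2 CPM for oligodendrocyte and −0.08 for choroid plexus and ependyma markers. The median log2 fold change of the neuron markers was −0.66, beside −0.0038 over all genes. Snap25, a synaptic vesicle fusion protein, was lower in 5 of 5 pairs (−1.97), and Atp1b1, a sodium pump subunit, had −0.76 (limma adjusted p = 0.303). Camk2a (−2.28), a synaptic kinase, and Celf4 (−1.04), an RNA-binding protein of neurons, were lower in 4 of 5 pairs. The summed level of the 10 markers was 162 to 186 CPM in control and 146 to 171 CPM in APP/PS1 libraries, and none was at 0 in any library. Most of that sum was Stmn2, whose log2 CPM of 6.66 differed by 0.02.

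Glial and mural markers were mostly lower too. All 11 measured of 12 oligodendrocyte markers were lower, 8 with an unadjusted p under 0.05 (median −1.83), with sums of 42.2 to 280 CPM in control and 33.6 to 143 CPM in APP/PS1 libraries and with Mag and Ermn at 0 in at least 1 library. Of 10 astrocyte markers 9 were lower, 2 with an unadjusted p under 0.05 (median −0.96, sums of 303 to 442 and 229 to 327 CPM). All 11 mural cell markers were lower, 10 with an unadjusted p under 0.05 (median −0.77, sums of 626 to 1050 and 326 to 629 CPM). All 3 measured of 8 choroid plexus and ependyma markers (median −1.41) and all 4 measured of 6 fibroblast markers (median −0.58) were lower. So were the 4 measured of 7 erythroid markers (median −1.16). Microglia markers, 9 of 11 measured, had a median of −0.03, and endothelial markers one of 0.03.

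The pairs did not all move alike. In replicate 2 the median difference was 0.11 over neuron markers, 0.41 over oligodendrocyte markers, 0.55 over astrocyte markers and 0.25 over microglia markers, while Miat differed by −0.65 and Snhg11 by −0.85. In the same pair the medians were −0.27 over mural, −0.395 over fibroblast, −0.87 over choroid plexus and ependyma and −3.33 over erythroid markers, the same direction as both RNAs. In replicate 5 the median difference was −0.94 over neuron, −1.80 over oligodendrocyte, −0.20 over astrocyte, −0.62 over microglia, −0.145 over fibroblast and −0.71 over choroid plexus and ependyma markers, 0.03 over mural and 2.35 over erythroid markers. In that pair Miat was at −0.58 in the control and −1.58 in the APP/PS1 library, and Snhg11 differed by −4.77. Mural markers had medians of −1.61 in replicate 1 and −1.45 in replicate 4. The part of other cell types in the Miat and Snhg11 differences was not tested beyond these values.

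**Figure D4:**
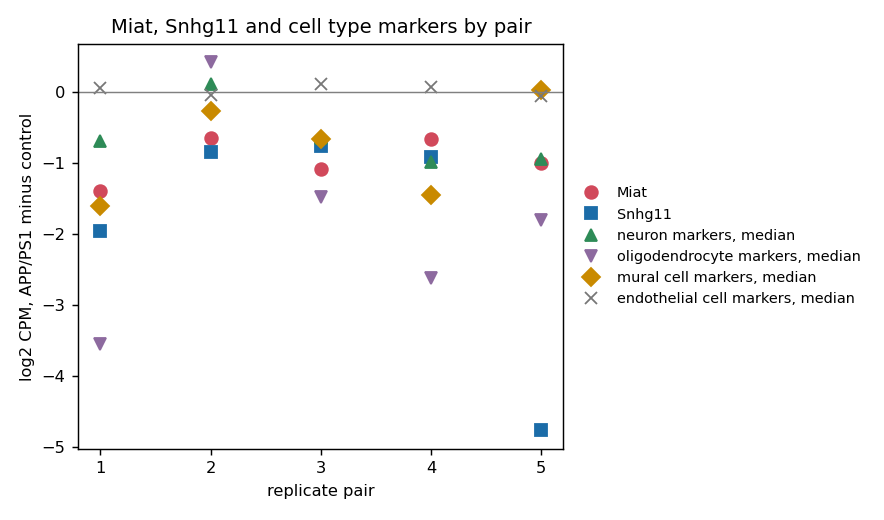
Difference in log2 CPM, APP/PS1 minus control, in each replicate pair for Miat, Snhg11 and the median of 4 marker lists. In pair 2 the neuron and oligodendrocyte medians lie above 0 (0.11 and 0.41), while the mural median (−0.27), Miat (−0.65) and Snhg11 (−0.85) lie below it.

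Malat1 and Neat1, the nuclear body RNAs, overlapped between the groups. Malat1 had 11.56, 11.37, 11.47, 11.57 and 11.79 log2 CPM in control replicates 1 to 5, and 11.66, 11.82, 11.75, 11.66 and 11.39 in APP/PS1. It was higher in 4 of 5 pairs and lower in replicate 5. Its log2 fold change was 0.11 (SE 0.126, 95% interval −0.21 to 0.42, limma adjusted p = 0.884), on 69987 to 437424 adjusted counts. Without replicate 2 the estimate was 0.02, and without replicate 5 it was 0.235, with an unadjusted p under 0.05 and a limma adjusted p = 0.721.

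Neat1 had 8.71, 8.54, 8.93, 8.93 and 9.06 log2 CPM in control, and 9.13, 9.25, 8.91, 8.91 and 8.76 in APP/PS1. It was higher in replicates 1 and 2 only, by 0.42 and 0.71. The log2 fold change was 0.16 (SE 0.153, 95% interval −0.22 to 0.54, limma adjusted p = 0.852). Without replicate 1 it was 0.09, without replicate 2 it was 0.02, and without replicate 5 it was 0.27.

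Genes for proteins of the nuclear bodies in which these RNAs lie showed small differences, measured as RNA and not as protein. Of 16 paraspeckle protein genes 15 were measured, 10 higher and 5 lower. None had an unadjusted p under 0.05, and the median log2 fold change was 0.02. The highest was Sfpq, a core paraspeckle protein (0.14, 5 of 5 pairs higher), and the lowest Nudt21, a cleavage factor (−0.04). Of 18 nuclear speckle protein genes 17 were measured, 13 higher and 4 lower, with a median of 0.04. One had an unadjusted p under 0.05, the splicing factor Srsf2 (0.16, 5 of 5 pairs higher, limma adjusted p = 0.569), a share of 5.88% beside 8.03% of all genes, and the lowest was the splicing factor U2af1 (−0.11). Scaling by library size alone moves the median of all genes to −0.04. The paraspeckle protein genes were then 5 higher and 10 lower (median −0.02) and the speckle protein genes 10 higher and 7 lower.

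The genes around Malat1 and Neat1 had small differences. Gm37376, an unconfirmed transcript that overlaps Malat1 on the other strand, had 0.19, and since the strand setting of the counting is not given in the sources used here, reads of the overlap cannot be assigned. Frmd8os, 145 bases from Neat1, had 0.08.

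Norad had 4.61, 4.54, 4.56, 4.66 and 4.74 log2 CPM in control and 4.62, 4.68, 4.67, 4.58 and 4.48 in APP/PS1. The groups overlapped throughout. Its log2 fold change was −0.02 (SE 0.0731, 95% interval −0.20 to 0.16, limma adjusted p = 0.972), the narrowest interval of the 8 RNAs. Genes were listed for 10 partners, Pumilio proteins and proteins reported to bind Norad or to be affected by it. Of these genes 9 were measured as RNA, and all 9 had a log2 fold change above 0, between 0.01 and 0.11 (median 0.06). By library size alone 7 were higher and 2 lower. One of the 9 (11.1%, beside 8.03% of all genes) had an unadjusted p under 0.05, the RNA-binding protein Rbmx (0.11, limma adjusted p = 0.598), and the highest was the topoisomerase Top1 (0.11). Epb41l1, a membrane skeleton gene 27930 bases from Norad, was lower in 5 of 5 pairs (−0.62, SE 0.176, limma adjusted p = 0.553), and Cnbd2 on the other side had −0.01.

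The 3 abundant snoRNA host genes overlapped between the groups. Gas5 had 6.76, 6.52, 6.64, 6.51 and 6.66 log2 CPM in control and 6.51, 6.76, 6.66, 6.78 and 6.63 in APP/PS1, with a log2 fold change of 0.05 (SE 0.0891, 95% interval −0.17 to 0.27, limma adjusted p = 0.92). Snhg1 had 4.98, 4.83, 4.77, 4.78 and 4.84 in control and 4.74, 4.90, 4.97, 4.97 and 4.90 in APP/PS1, with 0.06 (SE 0.0755, 95% interval −0.13 to 0.24, limma adjusted p = 0.896). In both genes the lowest pair difference was that of replicate 1, at −0.25 and −0.23.

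Snhg12 had the highest fold change of the 8 RNAs. Its log2 CPM was 4.29, 4.21, 4.12, 4.01 and 4.14 in control and 4.19, 4.28, 4.37, 4.48 and 4.36 in APP/PS1, so that 4 of 5 pairs were higher and the groups overlapped through replicate 1. The log2 fold change was 0.18 (SE 0.089, 95% interval −0.04 to 0.40, limma adjusted p = 0.721). Without replicate 1 it was 0.25 (limma adjusted p = 0.913) and by limma-voom 0.22 (adjusted p = 0.58), both with an unadjusted p under 0.05. Without replicate 4 it was 0.11, with an unadjusted p above 0.05.

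Of 22 snoRNA host genes listed, 15 were measured, 9 higher and 6 lower, with a median log2 fold change of 0.05. Snhg11 was the only one with an unadjusted p under 0.05 (6.67%, beside 8.03% of all genes), and it lay apart from the other 14, which ranged from −0.08 (Snhg14) to 0.18 (Snhg12). The pair medians of the list were −0.10, 0.16, 0.09, 0.18 and 0.05 in replicates 1 to 5. Genes for proteins that bind snoRNAs, 10 of 10 measured as RNA, were split 5 higher and 5 lower, from −0.15 (Nop10) to 0.12 (Nop56). None had an unadjusted p under 0.05. Of the genes for 14 factors of nonsense-mediated decay, 9 were higher and 5 lower, from −0.05 (Rbm8a) to 0.13 (the kinase Smg1), again with none at that p. By library size alone the decay factor genes were 6 higher and 8 lower.

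Genes next to the host genes stayed within a small range. Slc3a2, an amino acid transporter subunit that starts 106 bases from Snhg1 on the other strand, had a log2 fold change of 0.0083, and Stx5a had −0.05. Zbtb37, which overlaps Gas5 on the other strand, had −0.05, and Serpinc1 had 0.205 (2 of 5 pairs higher). Trnau1ap, 739 bases from Snhg12, had −0.03 and Taf12 −0.04. The genes beside Snhg11, Snhg17 (−0.05) and Ralgapb (0.09), did not share its lower values. Neither did the nearest tested genes of Miat, Tpst2 (−0.0020), 47296 bases away, and Mn1 (−0.07), as far as 756195 bases away. None of the 4 had an unadjusted p under 0.05.

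Likeness across the 10 libraries was taken as Pearson's r of log2 CPM, as a description, since the 2 libraries of a pair mirror each other. The genes named had the highest r among all genes with a mean of at least 2 log2 CPM. A direction shared with the RNA therefore largely follows from how they were picked. The genes most like Miat were Gmpr, a GMP reductase (r = 0.988), and Scamp5, a synaptic vesicle protein (r = 0.986), both lower in 5 of 5 pairs with log2 fold changes of −0.23 and −0.63. The size differed, since the Gmpr pair differences lay between −0.31 and −0.18 while those of Miat lay between −1.40 and −0.65. Those most like Snhg11 were Selenoo (r = 0.868) and Zdhhc4 (r = 0.85), the lowest values for any of the 8 RNAs.

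Snhg12 was most like Nr4a1, an immediate early transcription factor (r = 0.992), and Chka, a choline kinase (r = 0.978). The Nr4a1 pair differences were −0.10, 0.00, 0.23, 0.51 and 0.22 in replicates 1 to 5, beside −0.10, 0.06, 0.25, 0.48 and 0.22 for Snhg12. That closeness largely follows from picking Nr4a1 by its r. Nr4a1 belongs to a list of 15 genes that respond to cell dissociation, of which 14 were measured and all 14 had a log2 fold change above 0 (median 0.10). By library size alone 10 of the 14 were higher, and without replicate 4 it was 8 of 14 (median 0.03). One of them (7.14%, beside 8.03% of all genes) had an unadjusted p under 0.05, the transcription factor Junb (0.275, limma adjusted p = 0.569), and the highest was Fosb (0.32). The list's pair medians were −0.05, −0.02, 0.06, 0.51 and 0.22, highest in the same replicate 4 where Snhg12 differed most. The summed level of the list was 22000 to 27400 CPM in control and 25300 to 31300 CPM in APP/PS1 libraries. The part of the dissociation response in the Snhg12 values was not tested.

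The other most similar genes were Dis3l2, an RNA exonuclease (r = 0.986), and Ube2d2a (0.981) for Malat1, and Capn10 (0.993) and Cops7b (0.987) for Neat1. They were Dtnbp1 (0.988) and Cnbp (0.981) for Gas5, Paf1 (0.98) and Il13ra1 (0.978) for Snhg1, and Slc38a9 (0.99) and Cog4 (0.988) for Norad. Among the 8 RNAs themselves, Malat1 followed Norad (r = 0.874) and Neat1 (r = 0.796), and Snhg1 followed Snhg12 (r = 0.82) and Gas5 (r = 0.778). Miat followed Snhg11 (r = 0.716).

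All measured lncRNA genes give the background for these values. Of the 8 RNAs, 5 were higher and 3 lower (median log2 fold change 0.05), and of 1464 lncRNA genes 908 were higher and 556 lower (median 0.06). Protein-coding genes were split 5509 higher and 6311 lower (median −0.0066). Among lncRNA genes 80 were higher and 27 lower at an unadjusted p under 0.05 (7.31%), so Miat lay in the less common direction for the class. Among protein-coding genes, the type the annotation gives Snhg11, 193 were higher and 788 lower at that p. The 3 higher lncRNA genes with the smallest p were the unconfirmed transcripts Gm37238 (0.54, limma adjusted p = 0.238) and Gm37084 (0.48) and the antisense 4931403E22Rik (0.36). The 3 lower were Miat, the unconfirmed transcript Gm37121 (−0.77, limma adjusted p = 0.303) and Trerf1 (−0.22), which the annotation types as a processed transcript. Estimates are by limma, and all 3 were lower in 5 of 5 pairs. Membership of the lncRNA class was taken from the annotation alone and was not checked gene by gene.

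**Figure D5:**
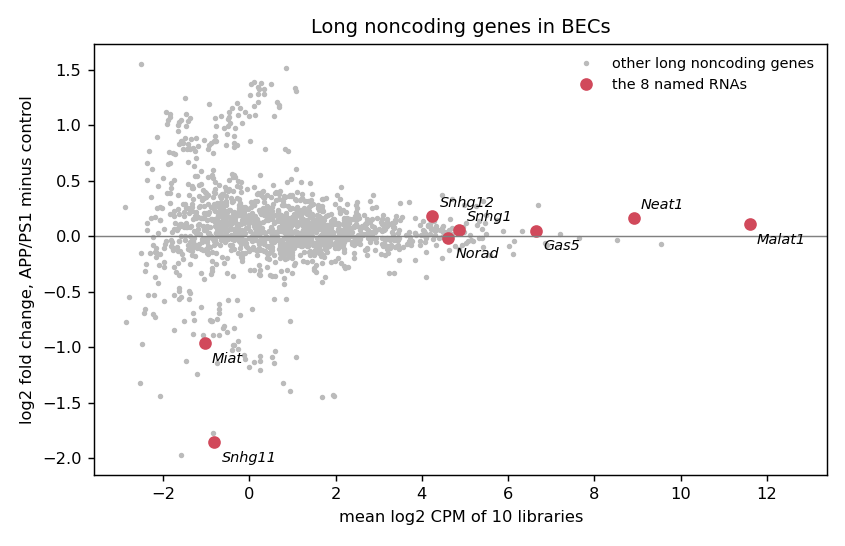
Log2 fold change, APP/PS1 minus control, against mean log2 CPM of 10 libraries for 1464 lncRNA genes (grey) and the 8 named RNAs (red; Snhg11 is added, being typed as protein coding in the annotation). The 6 RNAs above 4 log2 CPM lie between −0.02 and 0.18, and Miat and Snhg11 lie at −0.96 and −1.85 among weakly expressed genes.

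Of 38 other lncRNAs with names in wide use, 17 were measured, 9 higher and 8 lower, with a median of 0.02 (8 higher and 9 lower by library size alone). At an unadjusted p under 0.05 were 3 of the 17 (17.6%, beside 8.03% of all genes). Dleu2, which hosts tumour suppressor microRNAs, and Mir17hg, host of the miR-17 cluster, were higher in 5 of 5 pairs (both 0.15, limma adjusted p = 0.594). Airn, an imprinted antisense RNA, was lower in 4 of 5 pairs (−0.435, limma adjusted p = 0.605). Sox2ot, which overlaps the neural stem cell gene Sox2, had the lowest value (−1.97, lower in 4 of 5 pairs) and was at 0 in at least 1 library, as was Mir9-3hg. Lncpint had the highest (0.29). From a list of 10 genes in or beside the Dlk1-Dio3 domain of Meg3 and Rian, 3 were measured, all protein coding. None had an unadjusted p under 0.05, and they ran from Begain (−0.59) to Wars (0.04). Dlk1, Rtl1 and Dio3 were not among them, so these values do not describe the domain as a whole.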

How the data were processed

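Values came from bulk RNA sequencing of 5 control and 5 APP/PS1 BEC libraries. Per the study's methods, the authors aligned reads to mm10 with STAR, counted them with HTSeq, removed weakly expressed genes and took log CPM with edgeR, and corrected for batch with ComBat. Tool versions, library kit and strand setting are not given in the sources used here. The deposited values are log2 CPM with a prior count of 3 (lowest value −4.85), and 100% convert to whole adjusted counts within a tolerance of 0.02. Since the correction altered the counts, no counting error was computed. Correction sets a pair's deviations as mirror images (rank correlations of −0.999 to −0.989 over 10873 genes), so the sign of this check is fixed, and the pairing was taken from the replicate numbers. The sample labels give 4 batches, with replicates 4 and 5 in 1 batch, while the deposited values were centred in 5 pairs.

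The log2 values were fitted in R 4.3.3 with limma 3.58.1 (lmFit, eBayes), with genotype and replicate block as terms and 5.8 total degrees of freedom, and adjusted by Benjamini-Hochberg over 14106 genes at 0.05. The fit was tested on simulated data. Symbols, positions and exon lengths came from GENCODE M21. The 2900097C17Rik row was taken as Norad through its RefSeq synonym and position. Named genes were the 8 RNAs, their 2 most similar genes with a mean of at least 2 log2 CPM, their tested neighbours, the extremes and genes with an unadjusted p under 0.05 of each list (at most 4), and the 3 higher and 3 lower lncRNA genes with the smallest p. Snhg14, Stmn2, Mag, Ermn and Mir9-3hg were named after their values were seen where they fell outside this rule. Some neighbouring genes are not reported here. The RNAs and lists were chosen with earlier results of these data known. Alternatives were no replicate block, 4 batches, a mean-variance trend, 2 other scalings, limma-voom, a mean of at least 1 log2 CPM, a prior count of 0.125, a threshold of 0.1, and each replicate left out.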

Additional observations from a re-analysis of the deposited data

Results flagged for a closer look

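Among the 16 groups of 5 libraries (8 RNAs in 2 groups), 1 library stood far from the others of its group. This was the APP/PS1 library of replicate 5 for Snhg11, at −4.50 log2 CPM with the nearest at −1.51, a gap of 0.812 of the whole range of the group. By the rule behind this flag, chance gives about 1 flagged library in 20 independent groups, or 0.8 in 16. The groups here are not independent, since the 2 libraries of a pair mirror each other. These rates describe the rule and not how rare this gap is. The adjusted count behind it was 1.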

How the results depend on the processing

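Without the replicate block, 1 of the 8 RNAs passed the adjusted threshold (Miat, log2 fold change −0.964, adjusted p = 0.00156). That fit ignores that the pair means had been made nearly equal, and it called 648 of 14106 genes against 0 with the block. The other settings called 0 of the 8 at a threshold of 0.05 and from 0 to 5 genes in all, the most without replicate 2. At a threshold of 0.1 the fit with the block also called 0 of the 8, while with 4 batches the adjusted p of Miat was 0.0687. With a mean of at least 1 log2 CPM, which removes Miat and Snhg11, 0 RNAs had an unadjusted p under 0.05 and 1 was lower in APP/PS1. With a smaller prior count, 1 RNA (Miat) had an unadjusted p under 0.05, and the log2 fold change of Snhg11 was −2.30, with an unadjusted p above 0.05. The count of snoRNA host genes at an unadjusted p under 0.05, 1 with the block, was 2 without it, 2 by limma-voom, 0 with the mean filter and 0 with the smaller prior count. Leaving out each replicate in turn gave from 1 to 3 such host genes, the most without replicate 1. Gas5 turned to −0.00547 without replicate 4, and Norad to 0.000306 without replicate 4 and 0.0475 without replicate 5, none past a threshold, and over all replicates left out Gas5 lay between −0.00547 and 0.126 and Norad between −0.0568 and 0.0475. Leaving out a replicate moved Malat1 between 0.02 and 0.235, Neat1 between 0.02 and 0.27, Snhg1 between 0.02 and 0.13, Snhg12 between 0.11 and 0.25, Miat between −1.04 and −0.85, and Snhg11 between −2.13 and −1.12. The cause of these shifts was not tested, except that the filter removes genes by construction. Adjusted counts were lowest for Miat (6 to 78) and Snhg11 (1 to 144). No counting error was computed, so what depth limits was not measured.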

Other observations

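Among the weakly expressed genes near Miat in mean level, 30.5% had a log2 fold change of −0.5 or lower and 11.8% one of 0.5 or higher, in a window of 889 genes chosen after the values were seen. Near Snhg11 the shares were 29.8% and 10.7% of 991 genes.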
